A study of Mus musculus and Homo sapiens with 10 samples.

Results

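H3K27me3, the trimethylation of lysine 27 of histone H3, was called changed at 65 regions of the mouse genome after knockdown of Cbx8 in MMTV-Myc cells, 63 of them lower and 2 higher. The members are all the regions of the authors' deposited lists for this mark, out of 4818 changed regions in all lists of the series. Of these 4818, the mouse lists hold 966, and the others are H3K4me3 regions of the human line MDA-MB-231-Luc. The members were chosen by the difference in H3K27me3 between the 2 libraries of this comparison, as the authors called it, so their number and direction are given as a description. MMTV-Myc is a line of mouse cells named for a Myc transgene under the mouse mammary tumour virus promoter, which is active in mammary epithelium. The labels do not say whether the line is 1 clone.

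Both conditions were infected with lentivirus of the pLKO.1 type. The control carried a scrambled hairpin (shScr, genotype given as wild type) and the other a hairpin against Cbx8 (shCbx8, genotype given as Cbx8 knockdown). Selection with puromycin at 2 µg/ml began 2 days after infection and lasted at least 4 days. Chromatin was digested with micrococcal nuclease, nucleosomes were precipitated with 1 antibody against H3K27me3 in both conditions, and 100-bp single-end reads were taken. Each condition was represented by 1 library, beside an input library of the control cells, so no difference has a replicate check and none was tested.

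Polycomb repressive complex 2 places H3K27me3 through its enzymes Ezh1 and Ezh2, and the mark covers silent genes. Cbx8 is one of the chromodomain subunits of canonical Polycomb repressive complex 1. Its chromodomain recognises H3K27me3, and the complex compacts the chromatin there. Classical targets of this system are genes for developmental transcription factors, such as the Hox clusters, and the cell cycle inhibitors of the Cdkn2a locus. The study's title places Cbx8 in another setting, with Wdr5, a subunit of the complexes that methylate lysine 4 of histone H3.

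The deposited lists give a chromosome, a start and an end for each region, in the build mm9, and no reads, fold or q-value. The values that can be read for a member are therefore its position, its length and its distance to regions where other marks changed. Per their names, the lists hold regions past a 1.8-fold difference at a q-value of 1e-08, but how far each member lies past these limits, and what lies just outside them, cannot be read. The number of places tested is not given either, so the share of all H3K27me3 sites that was called is unknown. Whether the members lie at Polycomb target genes was asked and was not answered here, because no gene annotation of mm9 was used and positions of another build were not carried over. Regions are therefore named by position, counted from 1, and no gene is assigned to any.

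The lower regions were a few kilobases long. Their lengths ran from 1.7 kb to 7.5 kb with a median of 3.8 kb (interquartile range 2925 to 4475 bp, n = 63), and together they covered 241.55 kb. Only 2 were under 2000 bp, 16 each fell from 2000 to 3000 bp and from 3000 to 4000 bp, 17 from 4000 to 5000 bp, and 12 reached 5000 bp or more. The 10 longest made up 23.9% of the covered bases, so no small group of regions held most of the covered length.

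The longest lower region, chr12:110792651-110800150, stood apart from the rest at 7.5 kb. The next in length were chr11:19087551-19093400 with 5.85 kb, chr17:65584151-65589950 with 5.8 kb, chr19:27517201-27522950 with 5.75 kb and chr3:24750051-24755750 with 5.7 kb. These 4 differed by at most 3 steps of the 50-bp grid on which all regions were called. Chromosome 13 then supplied 3 of the following 4, which were chr13:42561501-42567050 (5.55 kb), chr13:93994951-94000450 (5.5 kb) and chr13:39732301-39737750 (5.45 kb). The region chr2:108399451-108404900 was also 5.45 kb long, and chr10:107231451-107236550, with 5.1 kb, was the tenth.

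At the other end of the list, the shortest lower regions were chr2:162550751-162552450 with 1.7 kb and chr7:56325951-56327700 with 1.75 kb. They were followed by chr3:9172401-9174400 with 2.0 kb, and by chr10:110316851-110318900 and chr12:90745901-90747950 with 2.05 kb each. Chromosomes 2, 3, 10 and 12 thus each held one of the 5 shortest and one of the 10 longest regions.

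The 2 higher regions were chr4:18008151-18010900, 2.75 kb long, and chr2:166589101-166591350, 2.25 kb long. Both were shorter than most lower regions, with 12 and 8 of the 63 lower regions below them in length. They lay on chromosomes that also held lower regions, 5 on chromosome 4 and 4 on chromosome 2. The nearest lower region was 4.04 Mb from the higher region of chromosome 2 and 13.6 Mb from that of chromosome 4.

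Compared with the lower regions of the other marks in the same cells, the lower H3K27me3 regions were long. The 701 regions with lower H3K4me3, a mark of active promoters, had a median of 1.85 kb, and the 166 with lower H3K27ac, a mark of active promoters and enhancers, a median of 2.0 kb. Of the H3K4me3 regions, 288 (41.1%) were shorter than the shortest lower H3K27me3 region, as were 71 (42.8%) of the H3K27ac regions. At the other side, 38 (5.42%) of the H3K4me3 regions and 23 (13.9%) of the H3K27ac regions reached the H3K27me3 median of 3.8 kb. The longest region of any mouse list was a lower H3K4me3 region of 7.85 kb, so the ranges overlapped. Length comes from the calls themselves and is a description of the lists, with no test. Unchanged H3K27me3 regions are not listed, so a length common to the mark cannot be told apart from one of the regions called lower.

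**Figure D1:**
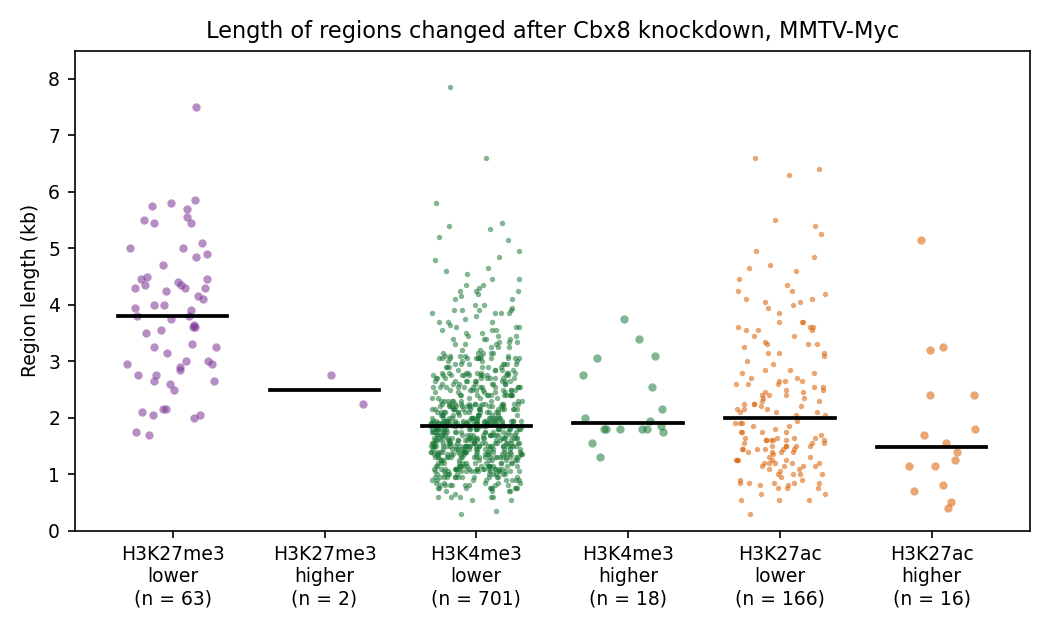
Length in kb (vertical axis) of every changed region in the 6 mouse lists, with 1 point per region, the horizontal bar at the median and points spread sideways at random within a list. The 63 lower H3K27me3 regions begin at 1.7 kb and centre on 3.8 kb, above the medians of 1.85 kb for lower H3K4me3 and 2.0 kb for lower H3K27ac.

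The lower regions were scattered over all 20 chromosomes present in the mouse lists, with 1 region on each of 7 chromosomes. Chromosome 13 had the most, with 9 of 63 (14.3%, exact 95% interval 6.75 to 25.4%, which covers counting error over regions only). The same chromosome held 20 of the 701 lower H3K4me3 regions (2.85%) and 11 of the 166 lower H3K27ac regions (6.63%). By bases, chromosome 13 held 40.4 kb or 16.7% of the lower H3K27me3 list. These other lists give a yardstick from the same cells and build that follows where active promoters and enhancers changed, not where H3K27me3 lies. Chromosome 13 was picked for its count, and the contrast was not tested.

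The 9 regions of chromosome 13 were long, with a median of 4.45 kb against 3.675 kb for the 54 elsewhere. The first 2 along the chromosome were chr13:7417051-7421350 (4.3 kb) and chr13:25130401-25134050 (3.65 kb), 17.7 Mb apart. A run of 6 followed within 11.5 Mb, from 36863851 to 48332350. It began with chr13:36863851-36868750 (4.9 kb) and went on with the regions at 39732301 and 42561501 given above, at gaps of 2.86 and 2.82 Mb. The pair chr13:46178251-46182250 (4.0 kb) and chr13:46598901-46603350 (4.45 kb) came 3.61 Mb later, and chr13:48329751-48332350 (2.6 kb) closed the run. The last member of the chromosome, at 93994951, lay 45.7 Mb farther on.

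On no other chromosome did a window of 11.5 Mb hold more than 2 lower H3K27me3 regions. In the longer lists of the other marks, such a window held up to 20 lower H3K4me3 regions, on chromosome 10, and up to 7 lower H3K27ac regions, on chromosome 11. The next chromosome in those lists held up to 19 lower H3K4me3 regions (chromosome 4) and 6 lower H3K27ac regions (chromosome 2). A longer list by itself puts more regions in a window. The counts therefore do not show whether such grouping is particular to H3K27me3. The run of 6 also held 1 of the 20 lower H3K4me3 regions and 1 of the 11 lower H3K27ac regions of chromosome 13. No higher region of any mark was listed on that chromosome. The window was drawn around the run after its positions were seen.

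**Figure D2:**
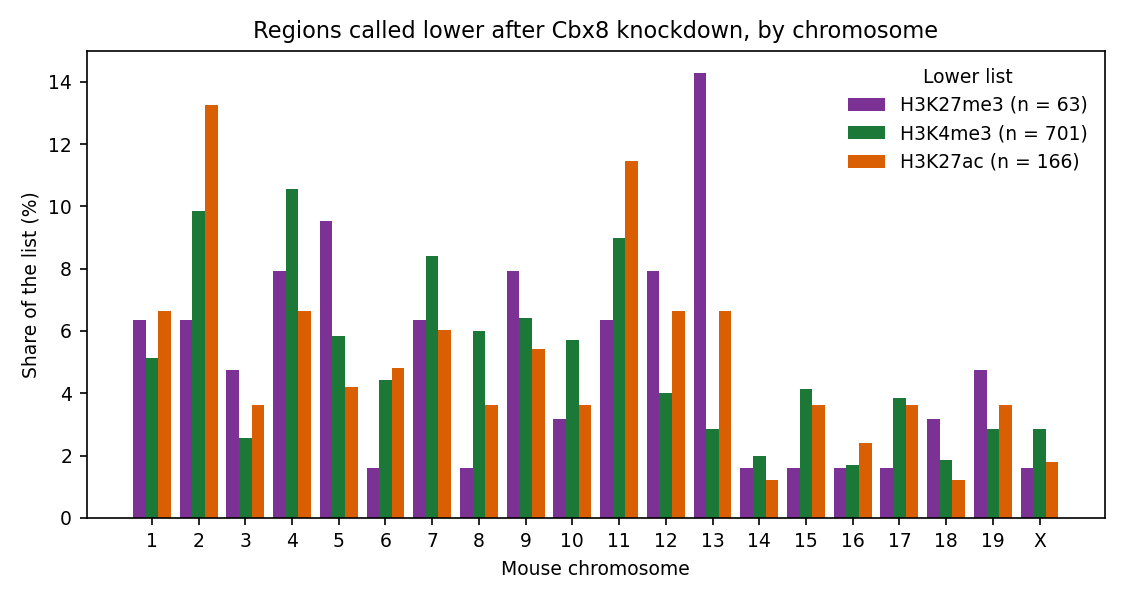
Share of each lower list (vertical axis, in % of the regions of that list) found on each mouse chromosome, with 1 bar per mark. Chromosome 13 holds 14.3% of the H3K27me3 list, 2.85% of the H3K4me3 list and 6.63% of the H3K27ac list, and chromosomes with a single H3K27me3 region stand at 1.59%.

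Spacing was then read over the whole list, with the run on chromosome 13 included. The median distance to the nearest other lower region of the list was 10.1 Mb over the 56 regions that shared a chromosome with another. No lower region lay closer than 100 kb to another, and 8 of 63 (12.7%) lay closer than 1 Mb, as 4 pairs. The closest pair was chr12:54482851-54485850 (3.0 kb) and chr12:54872501-54876500 (4.0 kb), separated by 386.65 kb. The pair at 46178251 and 46598901 on chromosome 13, which belongs to the run, was separated by 416.65 kb. On chromosome 3, the regions chr3:9172401-9174400 and chr3:9828201-9832600 (4.4 kb) were 653.8 kb apart. On chromosome 5, chr5:119430451-119434350 (3.9 kb) and chr5:120263751-120266700 (2.95 kb) were 829.4 kb apart. By comparison 24.0% of the lower H3K4me3 regions and 7.23% of the lower H3K27ac regions had a neighbour of their own list closer than 100 kb. Those lists are longer, which by itself brings neighbours closer.

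The next question was where the regions called changed for H3K27me3 lay relative to those called changed for the active marks. The active marks were read in other libraries and took no part in the choice of the members. Not one of the 65 regions shared a base with a region where H3K4me3 or H3K27ac was called changed. The lower H3K4me3 and H3K27ac lists cover only 1.42 and 0.382 Mb of the genome, so few overlaps could be found wherever the members lay, and nothing is read from this count. None came within 5 kb of such a region, and 4 of the 63 lower regions came within 100 kb, all of them near lower regions.

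The nearest approach was on chromosome 7. There chr7:144077001-144079950, a lower H3K27me3 region of 2.95 kb, ended 5.95 kb before a lower H3K4me3 region at 144085901 to 144087250. Also on chromosome 7, chr7:150636051-150638700 (2.65 kb) lay 48.1 kb from the lower H3K4me3 region at 150686801 to 150688900. The single lower region of chromosome 15, chr15:75986901-75990200 (3.3 kb), lay 64.5 kb from the lower H3K4me3 region at 75921251 to 75922400. On chromosome 11, chr11:94213601-94217850 (4.25 kb) lay 76.3 kb from a lower H3K27ac region at 94135101 to 94137300 and 164.45 kb from a lower H3K4me3 region on its other side, at 94382301 to 94383250. A similar arrangement was seen for chr2:179528501-179533000 (4.5 kb), with a lower H3K27ac region at 115.2 kb and a lower H3K4me3 region at 175.9 kb, both on the same side. These regions were chosen after their distances were seen.

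Distances were also taken over the whole list. How far apart they would be with no relation between the marks was not computed, and the sparser a list, the longer the distance to it, so the values are not read as near or far. The median lower H3K27me3 region lay 1.27 Mb from the nearest lower H3K4me3 region and 4.93 Mb from the nearest lower H3K27ac region. Within 1 Mb, 26 of 63 (41.3%) had a lower H3K4me3 region and 8 (12.7%) a lower H3K27ac region. Both kinds were present within 1 Mb of 5 members, and neither was present for 34 (54.0%). As for higher regions of the active marks, 1 member lay within 1 Mb of higher H3K4me3, chr5:120263751-120266700 at 931.35 kb, and 2 lay within 1 Mb of higher H3K27ac. The latter were on chromosome 18 at 444.45 kb and on chromosome 15 at 892.65 kb. Those lists hold 18 and 16 regions, so few such neighbours could be found. Of the 2 higher H3K27me3 regions, that of chromosome 2 lay 607.75 kb from a lower H3K4me3 region and that of chromosome 4 lay 2.81 Mb from one.

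Distance differed among the members. Of the 9 on chromosome 13, 0 lay within 1 Mb of a lower H3K4me3 or lower H3K27ac region, and their distances to lower H3K4me3 ran from 1.07 to 14.6 Mb. That chromosome held only 20 of the 701 lower H3K4me3 regions (2.85%) and 11 of the 166 lower H3K27ac regions (6.63%). The fewer regions a chromosome holds, the longer the distance to them, and chromosome 13 was picked for its count. The 0 of 9 is therefore not read as a trait of these members. Among the 54 on other chromosomes, 26 (48.1%) lay within 1 Mb of lower H3K4me3. Of the 33 members at least as long as the median, 11 (33.3%) lay within 1 Mb of lower H3K4me3, and of the 30 shorter ones 15 (50.0%). Chromosome 13 supplied 7 of the 33, so the contrast by length partly repeats that by chromosome. Of the 10 longest, 3 did so, namely the regions at 27517201 on chromosome 19 (224.5 kb), at 65584151 on chromosome 17 (631.45 kb) and at 110792651 on chromosome 12 (998.4 kb). The longest distance was that of chr3:24750051-24755750, 16.1 Mb from the nearest lower H3K4me3 region. These are counts over the members of 1 comparison, with no test.

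**Figure D3:**
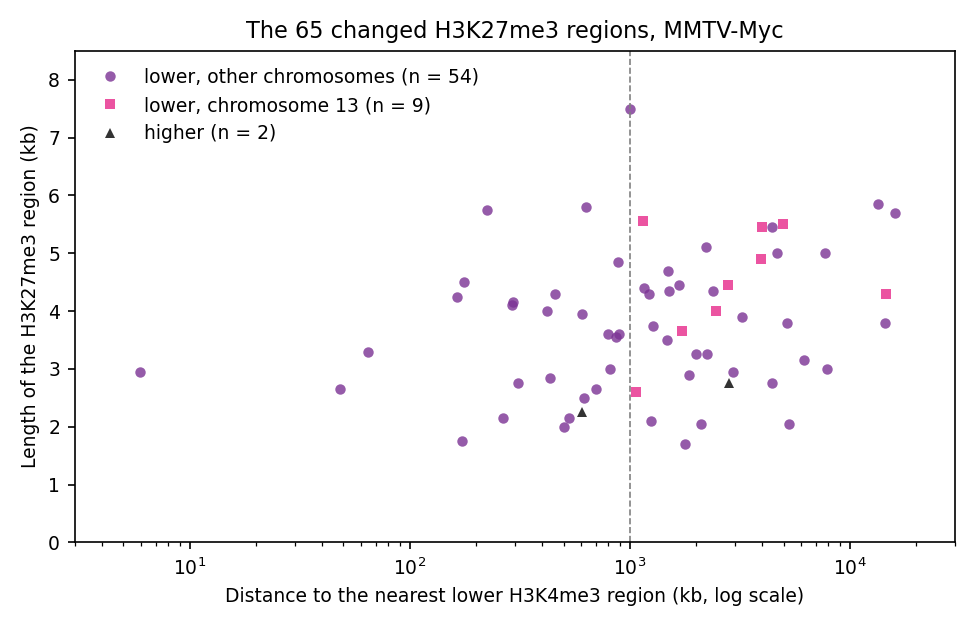
Length in kb (vertical axis) against the distance in kb to the nearest lower H3K4me3 region (horizontal log axis) for the 65 changed H3K27me3 regions, with 1 point per region and a dashed line at 1 Mb. All 9 squares of chromosome 13 lie to the right of the line, the point farthest to the left is the region of chromosome 7 at 5.95 kb, and both triangles of the higher regions lie below the median length of 3.8 kb.

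The lower H3K27ac regions, measured against the same 701 lower H3K4me3 regions, lay closer to them. H3K27ac and H3K4me3 both mark active promoters, so this order could be foreseen and is not read as a trait of the members. The median distance of the lower H3K27ac regions was 0.677 Mb, with 4 of 166 overlapping and 36 (21.7%, exact 95% interval 15.7 to 28.7%) closer than 100 kb. For lower H3K27me3 the share closer than 100 kb was 3 of 63 (4.76%, 0.993 to 13.3%). At 1 Mb the shares were 56.6% (48.7 to 64.3%) for H3K27ac and 41.3% (29.0 to 54.4%) for H3K27me3, and these intervals overlap. The intervals take regions as units and cover counting error only. With 1 library per condition and mark, the difference between marks was not tested, and the part of read depth, which the lists do not give, was not tested.

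**Figure D4:**
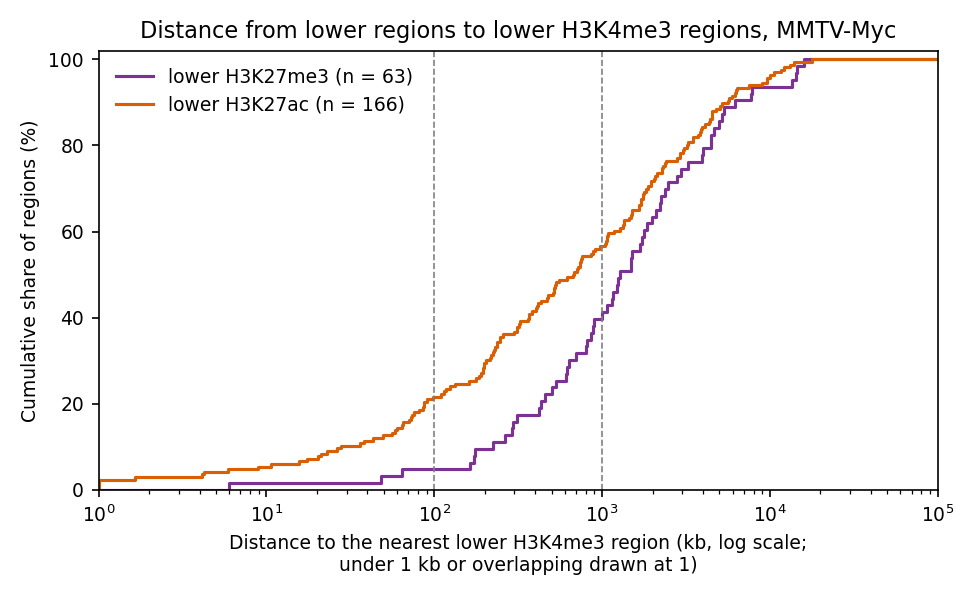
Cumulative share of regions in % (vertical axis) lying within a given distance of the nearest lower H3K4me3 region (horizontal log axis, in kb), for the 63 lower H3K27me3 and 166 lower H3K27ac regions, with dashed lines at 100 kb and 1 Mb. At 100 kb the curves stand at 4.76% and 21.7%, and at 1 Mb at 41.3% and 56.6%.

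The remaining lower regions were spread as follows. Chromosome 1 held chr1:16775501-16777650 (2.15 kb), chr1:25925051-25928300 (3.25 kb), chr1:166821551-166824700 (3.15 kb) and chr1:172289601-172292250 (2.65 kb). All 4 were shorter than the median, and 140.9 Mb separated the middle pair. On chromosome 2, besides the 3 regions given above, chr2:6510051-6514350 measured 4.3 kb and lay 101.9 Mb from the next.

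Chromosome 4 held chr4:31627101-31631450 (4.35 kb), chr4:53047151-53049900 (2.75 kb), chr4:57567651-57572650 (5.0 kb), chr4:114456951-114461250 (4.3 kb) and chr4:130863351-130867300 (3.95 kb). In contrast to chromosome 1, 4 of these 5 were longer than the median. The remaining members of chromosome 5, the next after chromosome 13 in number with 6 lower regions, were chr5:67502751-67505500 (2.75 kb), chr5:76904651-76906800 (2.15 kb), chr5:93029051-93033200 (4.15 kb) and chr5:145295401-145299000 (3.6 kb). Each of these 4 lay within 1 Mb of a lower H3K4me3 region, at 311.25, 529.7, 293.3 and 891.9 kb, while the close pair of the same chromosome lay 3.25 and 2.96 Mb from one.

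The 5 members of chromosome 9 were chr9:36503051-36506800 (3.75 kb), chr9:49439601-49443150 (3.55 kb), chr9:53598901-53603750 (4.85 kb), chr9:73088901-73091750 (2.85 kb) and chr9:118615451-118619550 (4.1 kb). All but the first lay within 1 Mb of lower H3K4me3, the last of them at 291.4 kb. Chromosome 7 also held chr7:75013851-75016850 (3.0 kb), 7.86 Mb from lower H3K4me3, whereas its other 3 members lay within 1 Mb of it, the farthest at 172.75 kb. Chromosome 11 also held chr11:35217301-35221100 (3.8 kb) and chr11:80097751-80101000 (3.25 kb), and chromosome 12 also held chr12:96590001-96593800 (3.8 kb). Chromosome 19 also held chr19:38423051-38426650 (3.6 kb) and chr19:54135451-54140450 (5.0 kb), and chromosome 18 held chr18:11340901-11345350 (4.45 kb) and chr18:33498801-33503150 (4.35 kb).

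Besides chromosomes 15 and 17, 5 chromosomes had a single member. These were chr6:90442401-90444900 (2.5 kb), chr8:128527401-128529500 (2.1 kb), chr14:26941951-26946650 (4.7 kb), chr16:34545251-34548750 (3.5 kb) and chrX:74570551-74573450 (2.9 kb). Of these 5 only the region of chromosome 6 lay within 1 Mb of lower H3K4me3, at 620.95 kb.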

How the data were processed

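Cells of the MMTV-Myc line were profiled by chromatin immunoprecipitation and sequencing. Per the labels, 10 libraries make up the series, 7 of them from MMTV-Myc. Samples were grouped by line, hairpin and antibody, with 1 library each. The tools named in the submitters' processing notes are SICER, MACS2 2.1.0, Bowtie 1.0.0 and FastQC 0.10.0, and the mouse build is mm9. The caller of the changed regions, and how input and read depth entered, are not given in the sources used here. The files deposited by the authors hold other values than measurements, namely the start and end position of each region in bp, with no count, fold or q-value. The fold of 1.8 and the q-value of 1e-08 are in the names of the deposited lists.

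All starts lay on a 50-bp grid and each end 1 bp below it, so starts were read as counted from 0 and ends as included. Distances are the bases between region ends. Overlap means at least 1 shared bp. Intervals are Clopper-Pearson at 95%, over regions. Planted distances were tested on simulated data. Python 3.11.15, numpy 2.4.6, pandas 2.3.3, scipy 1.17.1 and matplotlib 3.10.9 were used.

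Named by rule were the 10 longest and 5 shortest lower regions, both higher regions and every lower region within 1 Mb of another. The remaining members were listed for completeness, and the members and lists were chosen with earlier results of these data known. The gene table at hand was of GRCm38.p6, so its positions were not used, no sequence is printed, and the 12 gene lists drawn up for Polycomb targets, imprinted domains and cell types gave no result.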

Additional observations from a re-analysis of the deposited data

How the results depend on the processing

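Among 18 alternative values over 7 results, 12 stayed within the interval or range used to judge them. Some of the 12 could hardly move. Merging regions closer than 5 kb changed nothing, since the smallest gap in the lower list was 386.65 kb, and keeping autosomes only dropped 1 region. The count of 12 is therefore not read as a sign of stability. The lower share of the 65 regions (96.9%) became 100.0% when regions below the median length of all 65 were left out, since both higher regions are shorter. The count of lower regions shared with a changed region of another mark was 0 at 1 bp of overlap and at 5 kb, and 4 at 100 kb. The 8 lower regions within 1 Mb of another fell to 0 at 100 kb. By construction a wider limit can only raise these counts. The limits of distance to lower H3K4me3 and the settings for chromosome 13 were chosen after seeing the data. At 10 kb the share near lower H3K4me3 was 1.59% for lower H3K27me3 and 5.42% for lower H3K27ac. With H3K4me3 regions under 1700 bp left out it was 1.59% at 100 kb for H3K27me3, and among the 95 H3K27ac regions of at least 1700 bp it was 26.3%. These settings are unlike and are not compared. The first cut the H3K4me3 list to which distance was measured, which can only lower a share, and the second cut the H3K27ac list itself. The chromosome 13 share of 14.3% was 13.6% of 59 regions with members under 1 Mb apart merged, 16.7% of bases and 21.2% of the 33 members of 3.8 kb or more. The alternatives for gene starts and Polycomb targets were not run, for want of an mm9 annotation here. No library could be left out with 1 per condition. No paired analysis was possible because each group holds 1 library and the lists come from no test made here. The number of reads behind each call is unknown, and nothing can be said of H3K27me3 at places outside the lists.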

Other observations

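The lines of the lower H3K27me3 list are not in genome order, and their order went with length. The median length was 2650 bp in the first 21 lines, 3600 bp in the next 21 and 4850 bp in the last 21, and 8 of the 10 longest regions stood in the last 21. The longest region, on chromosome 12, is the last line. Across regions, Spearman's rho between line number and length was 0.80 (n = 63). It was 0.82 in the lower H3K27ac list (n = 166) and -0.75 in the lower H3K4me3 list (n = 701), where the longest stand first. No label says by which quantity the authors ordered the lines, so the order was used in no comparison.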
